A study of Danio rerio with 4 samples.

Results

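The subject is a set of 39 zebrafish (Danio rerio) genes for the synthesis of sterols and fatty acids, their elongation and their binding, read in whole eyes. Probe sets were matched to the list by gene symbol, and the list itself was drawn up with earlier results of these data known. Shares of members above those of all genes can follow from that choice and are no support for an effect. Of the 39 listed genes, 36 are the single symbol of at least 1 probe set in the array annotation, out of 19260 genes so named, and 3 (ldlra, fasn and acly) are not analysed here under those symbols. The 36 are 19 enzymes of sterol synthesis, 4 genes of sterol control, 4 of fatty acid synthesis and desaturation, 7 elongases and 2 fatty acid binding proteins.

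Total RNA of eyes from fish of mixed sex, 3.5 months after fertilisation (mpf), was hybridised to Affymetrix arrays. There are 4 arrays, 1 for each genotype. These are wildtype, the homozygous mutants eys-/- and lrp5-/-, and a double heterozygote with 1 mutant copy of either gene, eys+/-; lrp5+/-. The gene eys encodes a matrix protein of photoreceptors and lrp5 a Wnt co-receptor, both linked to inherited retinal disease in humans. The alleles, the number of fish pooled per array and the time of day of sampling are not given in the sources used here.

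Cholesterol is built from acetyl-CoA through mevalonate. HMG-CoA synthase and HMG-CoA reductase open the route, further enzymes turn mevalonate into farnesyl diphosphate, and squalene synthase and squalene epoxidase lead to the sterol ring, which later enzymes trim. When sterol is scarce in the endoplasmic reticulum, SCAP escorts the SREBP transcription factors to be cleaved, and INSIG holds this step back when sterol is plentiful. SREBPs raise the enzymes of the pathway and the LDL receptor, and SREBP-1 acts in particular on fatty acid synthesis. In the retina, photoreceptor discs hold very long polyunsaturated fatty acids, which ELOVL4 makes.

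All values are log2 signals, so a difference of 1 is a 2-fold change. Of a pair of arrays, at least 1 had to read 6.57 or more for a gene to count as measured. This level is the median of all values of probe sets with 1 symbol. A call needed a difference of at least 2-fold. With 1 array per genotype there is no spread between fish, no test and no p-value. Each difference compares 2 arrays, and the number of arrays limits the precision. As a scale for single differences, the robust SD of the log2 difference from wildtype over all measured genes was 0.20 in eys-/-, 0.20 in lrp5-/- and 0.23 for the double heterozygote. The 3 comparisons with wildtype share the wildtype array, so a low or high wildtype reading enters all of them. In whole eyes, fewer cells of a type and less RNA per cell cannot be told apart.

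Array medians lay between 5.03 and 5.06, and pairs of arrays correlated at 0.978 to 0.983 over 75212 probe sets. The tissue label was checked with eye markers: all 10 rod and all 10 cone markers in the annotation were at the measured level, as were 10 of 11 lens markers. Signal for lrp5 was 7.39 in wildtype eyes, 7.27 in eys-/-, 7.17 in lrp5-/- and 6.92 for the double heterozygote; where its probes lie relative to the mutation is unknown, so this reading is no check of the genotype. No probe set carries the symbol eys.

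Across the 36 genes the wildtype array most often gave the lowest reading and the eys-/- array the highest. With no filter on level, wildtype was the lowest of the 4 arrays for 20 of the 36 genes (55.6%), against 23.3% of all 19260 named genes. The eys-/- array was the highest for 16 of 36 (44.4%), against 26.9% of all. The lrp5-/- array was lowest for 1 member (2.78%), tm7sf2, against 22.3% of all. Among the 19 sterol enzymes, wildtype was lowest for 11 and eys-/- highest for 10. These are orders of 4 single readings, and the wildtype reading is 1 array throughout. The list was drawn up with earlier results known, so shares unlike those of all genes can follow from that choice. Counted against wildtype with no filter, 25 of 36 members were above 0 in eys-/- (48.5% of all genes), 28 of 36 in lrp5-/- (49.2%) and 26 of 36 for the double heterozygote (47.7%).

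**Figure D1:**
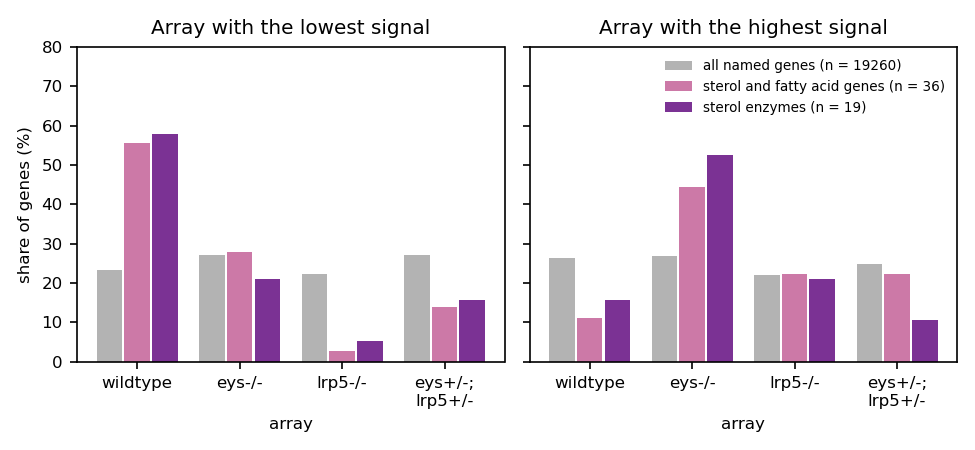
Share of genes (%) for which each of the 4 arrays gave the lowest (left) or highest (right) signal, with no filter on level, for all 19260 named genes (grey), the 36 sterol and fatty acid genes (pink) and the 19 sterol enzymes (purple). Wildtype is lowest for 55.6% of the 36 genes against 23.3% of all genes.

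Sterol synthesis opened with a pair of genes that read higher in every mutant array. The HMG-CoA synthase gene hmgcs1 read 7.75 in wildtype eyes, 8.55 in eys-/-, 8.34 in lrp5-/- and 8.11 for the double heterozygote. The HMG-CoA reductase gene hmgcra, whose product is the rate-limiting enzyme of the pathway and the target of statins, read 8.36, 8.91, 8.98 and 8.73 in the same order. For both genes all 3 mutant arrays lay above wildtype, with the double heterozygote nearest to it. The hmgcs1 differences from wildtype were 0.80, 0.59 and 0.36, the first a 1.74-fold difference. Those of hmgcra were 0.54, 0.62 and 0.37. Its paralogue hmgcrb did not share this pattern, with 6.77 in eys-/- as its lowest reading, 7.02 in wildtype and 7.03 for the double heterozygote, and a difference of -0.02 in lrp5-/-. In eys-/- the difference of hmgcra exceeded that of hmgcrb by 0.80. Whether probes of such paralogue pairs tell the copies apart is not known here.

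The middle of the mevalonate route showed less. Mevalonate kinase (mvk) and phosphomevalonate kinase (pmvk) stayed under the measured level on all 4 arrays, at 5.32 to 5.75 and 4.78 to 5.01, and both read highest in wildtype. The decarboxylase gene mvda read 6.28 in wildtype eyes, 6.84 in eys-/-, 6.81 in lrp5-/- and 6.67 for the double heterozygote. It was thus at the measured level on the mutant arrays and below it in wildtype. Its second probe set did not bear this out, reading 6.30, 6.28, 6.30 and 6.16 in the same order, so the mvda difference rests on which probe set is used. The isomerase gene idi1 ranged from 7.73 in the double heterozygote to 8.02 in eys-/-. The farnesyl diphosphate synthase gene fdps was the steadiest member, with 4 readings between 7.41 and 7.47. The squalene synthase gene fdft1, which commits farnesyl diphosphate to sterols, read 8.29 in wildtype eyes, 8.05 in eys-/-, 8.25 in lrp5-/- and 8.07 for the double heterozygote, with wildtype the highest of the 4.

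The steps that follow squalene held the member with the largest difference. The squalene epoxidase gene sqlea, a second rate-limiting point of the pathway, read 6.23 in wildtype eyes, 7.31 in eys-/-, 6.73 in lrp5-/- and 6.49 for the double heterozygote. The eys-/- array stood highest by 0.57 over the next. The difference of eys-/- from wildtype was 1.07, or 2.10-fold, and ranked 31 from the top among 10435 measured genes. Because the wildtype reading lies below the measured level, the size of that difference is uncertain. The other squalene epoxidase gene, sqleb, differed by -0.14 in eys-/-. It reached the measured level in wildtype alone, at 6.63, and read 6.49 in eys-/-, so this size is uncertain too. The lanosterol demethylase gene cyp51 followed the order of sqlea, with 7.98 in wildtype, 8.69 in eys-/-, 8.34 in lrp5-/- and 8.04 for the double heterozygote. Its difference was 0.71 in eys-/- and 0.06 in the double heterozygote.

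Later sterol enzymes were mixed. The desaturase gene sc5d read 8.03 in wildtype eyes, 8.57 in eys-/-, 8.13 in lrp5-/- and 8.34 for the double heterozygote. The methyl oxidase gene msmo1 read 9.19, 9.30, 9.61 and 9.28 in that order, so here lrp5-/- stood apart from the other three, by 0.42 over wildtype. The reductase gene hsd17b7 was higher on all 3 mutant arrays by 0.26 to 0.33. The sterol C14 reductase gene tm7sf2 differed by 0.12 in eys-/-, -0.17 in lrp5-/- and -0.11 for the double heterozygote. The last enzyme of the list, dhcr7, which makes cholesterol from 7-dehydrocholesterol, differed by -0.02, 0.02 and -0.28. The genes lss (lanosterol synthase), nsdhl and ebp were below the measured level on all arrays, with readings between 4.43 and 5.21, and give no usable size.

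**Figure D2:**
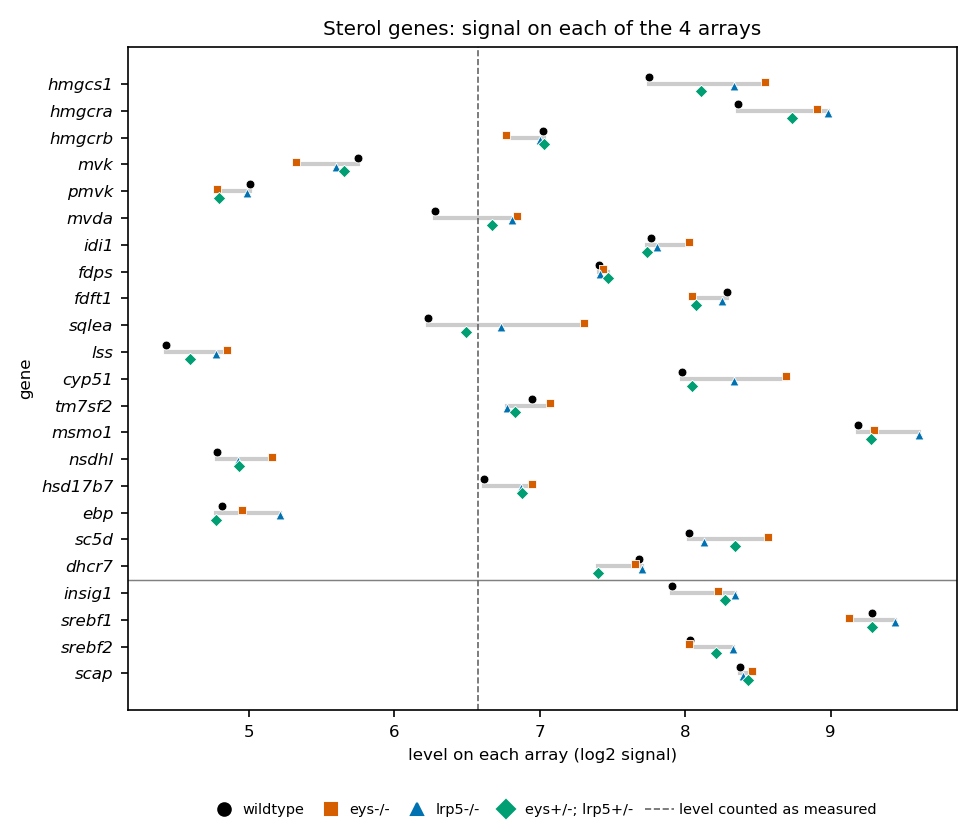
Log2 signal (horizontal axis) of each of the 19 sterol enzyme genes, in pathway order, and below the line the 4 sterol control genes, with 1 point per array by genotype, a grey bar from the lowest to the highest reading and a dashed line at 6.57, the level counted as measured. Signals of different genes come from different probe sets and are not comparable. The wildtype points of hmgcs1, hmgcra, mvda and sqlea, among others, lie left of all mutant points. The second mvda probe set, which is not drawn, did not show this. The 4 points of fdps span 0.07.

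As a group, 14 of the 19 sterol enzymes were measured in eys-/- against wildtype, 1 of them was called higher (sqlea) and 0 lower, where 0.326% and 0.307% of all 10435 measured genes were called. Their median difference was 0.29, against -0.01 over all measured genes, and 11 of 14 were above 0, against 47.1% of all. In lrp5-/- the median was 0.18 over 14 enzymes, against 0.00 over all genes, with 0 called higher (background 0.393%) and 0 lower (0.278%) and 11 of 14 above 0, against 50% of all. In the double heterozygote 13 were measured, with a median of 0.07, 0 called higher (background 1.23%) and 0 lower (0.489%) and 9 of 13 above 0, against 50.3% of all. Over all 19 enzymes, with no filter on level, the medians were 0.26, 0.15 and 0.07. The filter can favour a gene that passes through its higher array, as sqlea and mvda did, so the unfiltered medians are given beside the others.

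The sterol control genes differed from wildtype by at most 0.43. The gene insig1, whose product retains SCAP and which is itself an SREBP target in mammals, read 7.91 in wildtype eyes, 8.22 in eys-/-, 8.34 in lrp5-/- and 8.27 for the double heterozygote. All mutant arrays lay above wildtype and within 0.12 of each other. The second insig1 probe set, below the measured level, differed by 0.08, -0.17 and -0.16, so its sign was opposite on the latter arrays. The gene srebf2, for the SREBP that drives sterol synthesis, read 8.03 in both wildtype and eys-/-, 8.33 in lrp5-/- and 8.21 for the double heterozygote. The gene srebf1, for the SREBP of fatty acid synthesis, read 9.28, 9.13, 9.44 and 9.28, lowest in eys-/- and highest in lrp5-/-. The escort gene scap ranged from 8.38 to 8.46. The group median was 0.04 in eys-/-, 0.22 in lrp5-/- and 0.12 for the double heterozygote.

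The fatty acid synthesis genes matched by their listed symbols, which leave out fasn and acly, were steady apart from fads2. The acetyl-CoA carboxylase gene acaca, which makes malonyl-CoA, read 9.20 in wildtype eyes, 9.29 in eys-/-, 9.41 in lrp5-/- and 9.28 for the double heterozygote. The stearoyl-CoA desaturases scd and scdb, which put the first double bond into saturated chains, spanned 0.19 and 0.16 over the 4 arrays. The polyunsaturated fatty acid desaturase gene fads2 read 7.69 in wildtype eyes, 8.32 in eys-/-, 8.15 in lrp5-/- and 8.22 for the double heterozygote. Its 3 mutant readings lay within 0.17 of each other and at least 0.45 above wildtype. The group medians were 0.02, 0.15 and 0.10. The ATP citrate lyase gene is named aclya in the annotation, for which the RefSeq table gives acly as a synonym. It was added as an alternative and read 7.93 in wildtype eyes, 8.39 in eys-/-, 8.35 in lrp5-/- and 8.30 for the double heterozygote, again with wildtype lowest. The annotation also holds fasn2, which was not matched as a synonym of fasn. It read 4.52, 4.46, 4.65 and 4.15 in the same order, below the measured level and lowest in the double heterozygote.

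The elongases went different ways. The photoreceptor elongase gene elovl4b read 11.95 in wildtype eyes, 12.12 in eys-/-, 11.85 in lrp5-/- and 11.67 for the double heterozygote. The double heterozygote lay 0.45 below eys-/- and 0.27 below wildtype. Its paralogue elovl4a read 8.63, 8.62, 8.67 and 8.80, so that the double heterozygote was the highest array for elovl4a and the lowest for elovl4b. The elongase gene elovl5, which acts on polyunsaturated chains, shared the order of the extremes of elovl4b, with 7.46 in wildtype, 7.64 in eys-/-, 7.48 in lrp5-/- and 7.32 for the double heterozygote. The gene elovl6, whose product extends palmitate to stearate, read 8.28 in wildtype eyes, 8.45 in eys-/-, 8.65 in lrp5-/- and 8.73 for the double heterozygote. It was higher than wildtype on all mutant arrays and highest in the double heterozygote, by 0.45. The gene elovl2, which extends precursors of docosahexaenoic acid, reached the measured level in the double heterozygote alone, at 6.65 against 6.25 in wildtype. Of the elovl1 pair, elovl1b spanned 0.17, and elovl1a stayed below the measured level at 5.59 to 6.04. Group medians were 0.17 over 5 measured genes in eys-/-, 0.03 over 5 in lrp5-/- and 0.08 over 6 in the double heterozygote, where elovl2 entered through that array alone. With no filter, over all 7 elongases, they were 0.17, 0.05 and 0.17.

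Beside elovl4b, the 10 rod markers had median differences of 0.12 in eys-/-, -0.07 in lrp5-/- and -0.02 for the double heterozygote, and the 10 cone markers 0.06, 0.03 and 0.16. The summed linear signal of the rod markers ran from 19077 to 20660 over the arrays and that of the cone markers from 31725 to 34075. Single rod markers went different ways. The transducin subunit gene gngt1 and the disc rim gene rom1a had the array order of elovl4b. Signal for gngt1 was 9.57 in wildtype eyes, 9.83 in eys-/-, 9.25 in lrp5-/- and 9.23 for the double heterozygote. The other rod markers did not have that order. Of the cone markers, the opsin gene opn1lw2 alone had it, at 9.47, 9.63, 9.15 and 8.94. The rod genes saga and nrl instead read lowest in eys-/-, with differences from wildtype of -0.32 and -0.31. All of these single markers were named after their values were seen. In the double heterozygote nr2e3 (1.91) and pde6ga (1.67) of the rod list and cnga3a (1.07) of the cone list were called higher. Of all measured genes, 1.23% were called higher there. The part of these markers in the elovl4b differences was not tested.

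The 2 listed fatty acid binding protein genes, whose products carry fatty acids within cells, read higher in all mutants. The gene fabp4b read 7.37 in wildtype eyes, 8.41 in eys-/-, 8.04 in lrp5-/- and 7.68 for the double heterozygote. Its differences from wildtype were 1.04, 0.66 and 0.30, so that eys-/- was 2.06-fold above wildtype, which ranked 32 among 10435 measured genes. The gene fabp1a, of the liver type in mammals, read 8.56 in wildtype eyes, 9.32 in eys-/-, 8.96 in lrp5-/- and 9.24 for the double heterozygote. Wildtype was lowest for both genes, and the order of lrp5-/- and the double heterozygote was opposite in the pair. The related gene fabp4a read 10.41 in wildtype and differed by 0.30, 0.08 and 0.25. Other measured relatives did not share this pattern. The gene fabp3 differed by -0.21, 0.03 and -0.22, and fabp7a by 0.49, 0.04 and -0.19.

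**Figure D3:**
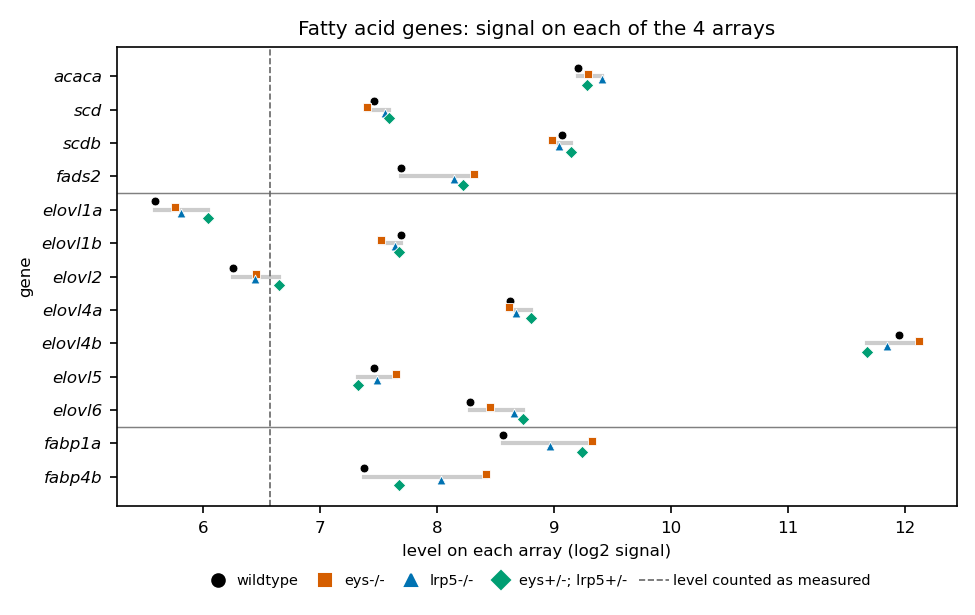
Log2 signal (horizontal axis) of the 4 fatty acid synthesis genes, the 7 elongase genes and the 2 binding protein genes, separated by lines, with 1 point per array by genotype, a grey bar from the lowest to the highest reading and a dashed line at 6.57, the level counted as measured. Wildtype is the lowest point for acaca, fads2, elovl1a, elovl2, elovl6, fabp1a and fabp4b, and the double heterozygote is the lowest for elovl4b and elovl5.

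Together, 29 members were measured in each comparison with wildtype. In eys-/- 2 of 29 were called higher, sqlea and fabp4b, against 0.326% of all measured genes, and 0 lower. Of these, sqlea passed the filter through its eys-/- array, where it is high, and not through wildtype. With no filter on level 2 of 36 were called higher, against 0.426% of all named genes. With the filter 1 log2 unit higher, 1 of 22 was, fabp4b, against 0.382%. In lrp5-/- 0 of 29 were called in either direction, against 0.393% of all measured genes higher and 0.278% lower. In the double heterozygote 0 of 29 were, against 1.23% and 0.489%. Counts of 0 among 29 genes are near those shares and say nothing particular of the members. Counts above the shares, here and at 1.5-fold, can follow from a list chosen with earlier results known. They are no support for an effect. At 1.5-fold in place of 2-fold, 6 of 29 were higher in eys-/- (sqlea, fabp4b, hmgcs1, fabp1a, cyp51 and fads2), against 1.58% of all measured genes. In lrp5-/- 3 of 29 were (fabp4b, hmgcra and hmgcs1), against 2.07%, and in the double heterozygote 1 of 29, fabp1a, against 3.91%. At that fold 0 members were lower in any of these, where 1.7%, 1.19% and 2.25% of all measured genes were. The median over the members was 0.17 in eys-/-, 0.16 in lrp5-/- and 0.09 for the double heterozygote.

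**Figure D4:**
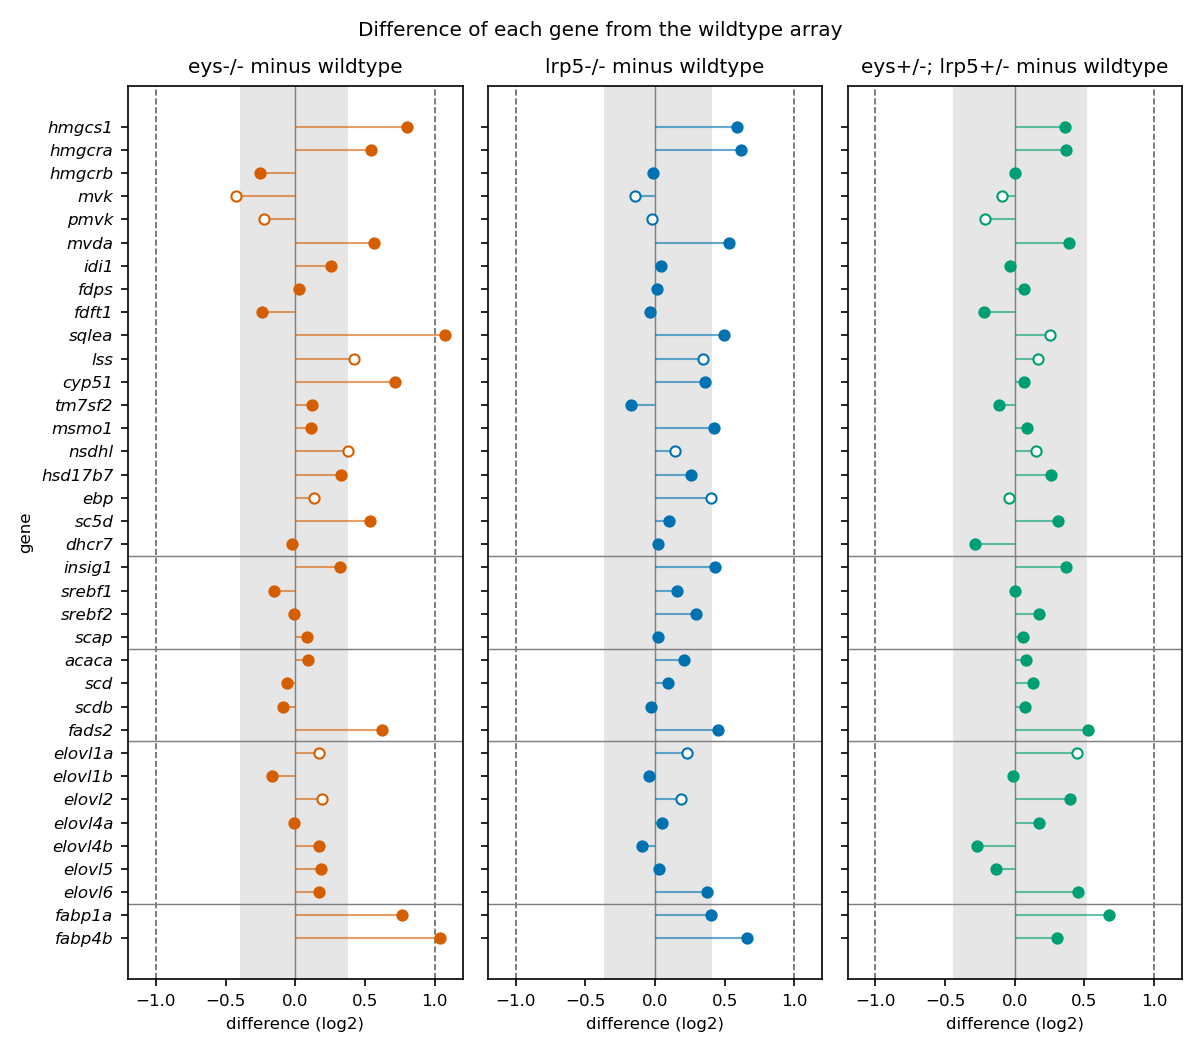
Difference of each mutant array from wildtype (log2, horizontal axis) for the 36 genes in 5 groups separated by lines. Filled points are measured and open points are not, the grey band spans the 5th to the 95th percentile of all measured genes, and dashed lines mark 2-fold. In eys-/- sqlea (1.07) and fabp4b (1.04) lie past 2-fold, and no member does in lrp5-/- or eys+/-; lrp5+/-.

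The mutants were also set against each other, without the wildtype array. In lrp5-/- minus eys-/-, 0 of 29 members were called, where 1.43% of all 10446 measured genes were. The lowest were sqlea at -0.57 and sc5d at -0.44, and the highest srebf1 and msmo1, both at 0.31. The members had a median of -0.02, against 0.01 over all genes, and the sterol enzymes one of -0.05. In the double heterozygote minus eys-/-, 0 of 30 were called, where 2.18% of 10448 were, with sqlea at -0.82, fabp4b at -0.74 and cyp51 at -0.65. These 3 of 30 were lower by 1.5-fold or more, against 3.04% of all. The sqlea reading of 6.49 in the double heterozygote is below the measured level, so the size of its difference is uncertain. The highest member was elovl6 at 0.28, and 12 of 30 were above 0, against 52% of all. The sterol enzymes had a median of -0.20 there, against 0.01 over all genes, and 3 of 14 were above 0, against 52% of all. In the double heterozygote minus lrp5-/-, 0 of 30 were called, where 0.59% of 10339 were. The members ran from -0.36 for fabp4b to 0.28 for fabp1a, and the sterol enzymes had a median of -0.16. Any pair of these comparisons shares an array, so none of them is independent of the others.

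Other genes of lipid metabolism were counted from separate lists. Of all measured genes, 0.326% were called higher and 0.307% lower in eys-/-, and 0.393% and 0.278% in lrp5-/-. In the double heterozygote the shares were 1.23% and 0.489%. Counts of 0 in lists this small are near those shares. Of 15 measured further genes of sterol synthesis, uptake and export, 0 were called in any comparison with wildtype, and their medians were -0.02, -0.10 and -0.09. The cholesterol exporter gene abca1a differed by -0.75 in eys-/-. The gene mylipb, related to a ligase that degrades the LDL receptor, differed by 0.73 in the double heterozygote. The mylipb reading of 6.51 in wildtype is below the measured level, so its size is uncertain. Of 14 further genes of fatty acid and glyceride synthesis, 1 was called, the acyl-CoA synthetase gene acsl3a, which read 7.84 in wildtype and 8.85 in lrp5-/-, a difference of 1.01, and their medians were -0.01, -0.03 and -0.08. Among 7 further elongation genes 0 were called, with elovl8a at -0.56 in eys-/-, 0.60 in lrp5-/- and 0.88 for the double heterozygote and the reductase gene hsd17b12a at 0.06, 0.42 and 0.42. Their medians were 0.06, 0.01 and 0.04. Of the further fatty acid binding and uptake genes, 5 were measured in each homozygote, with medians of 0.30 and 0.03. In the double heterozygote 6 were, with a median of -0.21, and 1 was called, the fatty acid transporter gene cd36 at 1.18. Its wildtype reading of 5.96 is below the measured level, so that size is uncertain. Of 16 genes of fatty acid oxidation 0 were called, and the median was -0.05 in each comparison. Their largest differences were in eys-/-, -0.89 for angptl4, an inhibitor of lipoprotein lipase, and -0.82 for the carnitine palmitoyltransferase gene cpt1ab. The eys-/- readings of angptl4 (6.47) and cpt1ab (6.11) are below the measured level, so those sizes are uncertain.

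Markers of several cell types of the eye also differed between the arrays. As a scale for the calls below, 0.326% of all measured genes were called higher in eys-/-. The shares called lower were 0.307% in eys-/-, 0.278% in lrp5-/- and 0.489% for the double heterozygote. Of 16 surface epithelium markers in the annotation 15 reached the measured level, and the median difference was 0.39 in eys-/-, 0.37 in lrp5-/- and 0.24 for the double heterozygote. Their summed linear signal was 9682 in wildtype, 12148 in eys-/-, 11642 in lrp5-/- and 10331 for the double heterozygote. The summed signal of the sterol enzymes, from 3213 in wildtype to 3978 in eys-/-, had the same order of arrays. This likeness was not a planned comparison, and likeness of order was not ranked over the lists. The epithelial and secretory gene agr1 was called in eys-/-, at 1.44. Single markers of the list went the other way, such as the adhesion gene epcam at -0.72 in lrp5-/- and -0.70 in the double heterozygote and the keratin gene krt18a.1 at -0.30 in eys-/-, both named after their values were seen. The mean over the list was 0.12 in the double heterozygote, with 8 of 14 above 0. Of 9 pigment epithelium markers 8 were measured, with medians of 0.12, 0.35 and 0.21 and summed signals from 10268 in wildtype to 13296 in lrp5-/-. Of 13 endothelial markers 10 were measured, with medians of -0.35, -0.30 and -0.39 and a summed signal from 2289 to 3039, highest in wildtype, and mmrn2a was called lower in lrp5-/- (-1.05) and the double heterozygote (-1.37). Ribosomal protein genes had medians of -0.25, -0.21 and -0.24 over 12 genes, and the 4 measured myelin genes -0.19, -0.21 and -0.20. The summed myelin signal was 1710 in wildtype, 891 in eys-/-, 1194 in lrp5-/- and 1038 for the double heterozygote. The myelin gene mbpa was called lower in eys-/- (-1.59) and the double heterozygote (-1.10). Lens markers had medians of -0.12, 0.10 and -0.01, and Müller glia markers -0.14, 0.09 and 0.12. Skeletal muscle markers had 0.05, -0.49 and -0.22, with 5 of 10 above 0 in eys-/-. Their summed signal ran from 2492 in lrp5-/- to 3745 in wildtype, and mb was called lower in eys-/- (-1.06) and lrp5-/- (-1.16). The part of these lists in the differences of the sterol and binding genes was not tested. Of 10 adipocyte and liver markers, 9 stayed below the measured level on all 4 arrays, among them plin1 and adipoqa. The remaining one, cfd, differed by 0.12, -0.50 and -0.55. Its readings of 6.42 in lrp5-/- and 6.37 in the double heterozygote are below that level, so the latter sizes are uncertain.

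**Figure D5:**
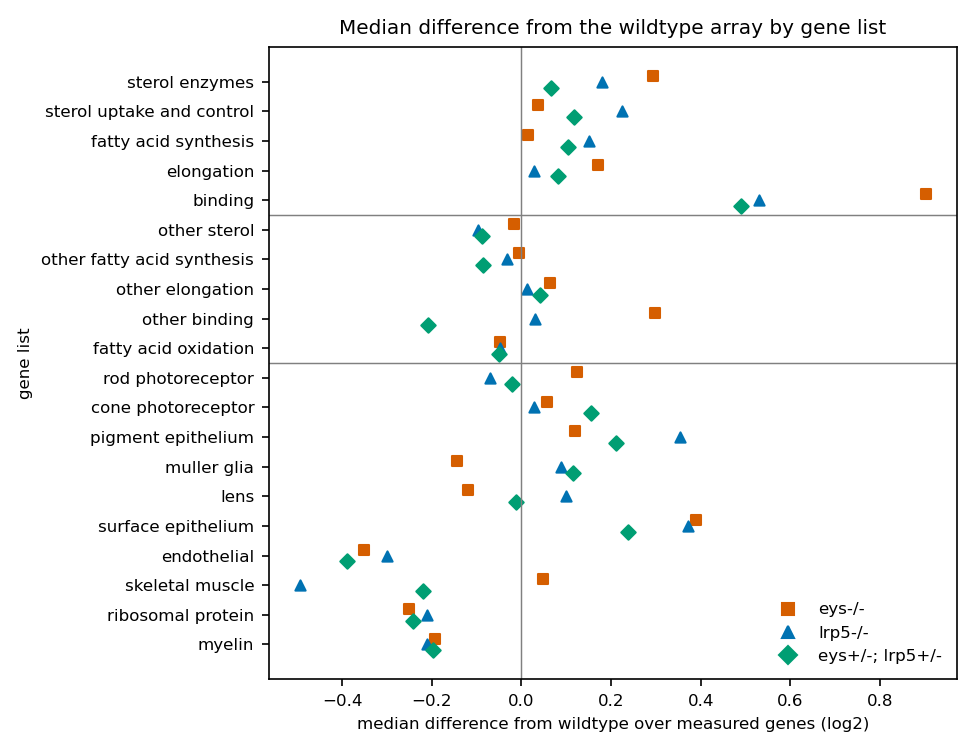
Median log2 difference from wildtype (horizontal axis) over the measured genes of each list, with 1 point per mutant genotype. The 5 member groups are at the top, other lipid lists in the middle and cell type lists at the bottom; the adipocyte and liver list, with 1 measured gene, is not drawn. The binding group is farthest to the right (0.90, 0.53 and 0.49) but holds only 2 genes. The other binding list has medians of 0.30, 0.03 and -0.21. Of the cell type lists, surface epithelium, pigment epithelium and cone photoreceptor lie right of 0 in all 3 genotypes.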

How the data were processed

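Eye RNA was isolated with TRI Reagent and labelled as cDNA, per the labels' protocols. The authors deposited a log2 signal for each of 75212 probe sets on 4 arrays, a scale that was inferred from the range of the values. The submitters' processing notes name Transcriptome Analysis Console 4.0 and RMA, a method that equalises array distributions and so hides any change common to most genes.

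Array annotation dated 2013 gives 20806 probe sets 1 gene symbol, 855 several and 53551 none. Probe sets with 1 symbol were used, and the one with the highest mean stood for each gene. Of the 36 members, 33 had 1 probe set and 3 had 2. Calls, filters and alternatives were computed in Python 3.11.15 with pandas 2.3.3. The 2-fold call was tried on simulated data in which every changed gene read at or above the measured level in wildtype. All of those genes passed the main filter by construction, so the filter itself was not tested. Changed genes that pass only through their higher array were not simulated, and neither were the alternatives. Genes named from the other lists were those past 2-fold in a comparison with wildtype, or else the 2 with the largest difference of a list, and not all of them are printed. The genes fabp3, fabp4a, fabp7a, sqleb, aclya, fasn2, plin1 and adipoqa were named after their values were seen. The members and lists were chosen with earlier results of these data known. Promoter motifs and sequences were not analysed here. No genome position is given, since no source used here names a build.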

Additional observations from a re-analysis of the deposited data

How the results depend on the processing

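The alternatives were no filter on level, a filter 1 log2 unit higher, the mean of all probe sets, a baseline made of the other 3 arrays averaged, repeated quantile normalization, centring, removal of the trend with level, RefSeq synonyms, 1.5-fold in place of 2-fold and the mean in place of the median. Since there are no replicates, single differences were compared within the robust SD of the difference over all measured genes. Of 668 recomputed member differences 638 stayed within it and 30 did not. The filters and the synonyms leave a single difference unchanged by construction. Averaging of probe sets can change only the 3 members with 2 probe sets. The count of 638 was thus largely fixed in advance and is no measure of robustness. The robust SD is a wide limit for a group median, so medians are given as values. The count higher in eys-/- was 2 in the main setting, 1 with the stricter filter (fabp4b), because sqlea did not reach it, 0 against the mean of the other arrays and 6 at 1.5-fold. At 1.5-fold the counts were 3 in lrp5-/- and 1 in the double heterozygote. Against the mean of the other arrays, sqlea differed by 0.82 and fabp4b by 0.72 in eys-/-. In that setting the median of the binding genes was 0.56 in eys-/-, 0.067 in lrp5-/- and 0.013 for the double heterozygote, and that of elongation in eys-/- was -0.082. Further medians took the other sign there: sterol control (-0.057) and fatty acid synthesis (-0.053) in eys-/-, and the sterol enzymes in the double heterozygote (-0.092). The median of the sterol enzymes in eys-/- ran from 0.19 to 0.40 over its 9 alternatives and in lrp5-/- from 0.071 to 0.23. By construction this setting takes weight from the wildtype array, which was lowest for most members. No paired analysis was possible because each genotype has 1 array.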
